A study of Homo sapiens with 3 samples.

Results

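RNA bound by CSTF2tau was examined at 8 genes known for noradrenaline synthesis and for growth factor reception in neuroblastoma cells. The genes were chosen by Ensembl gene ID: 4 of the catecholamine pathway and 4 receptor tyrosine kinases. The first set was TH (ENSG00000180176), DBH (ENSG00000123454), DDC (ENSG00000132437) and SLC18A2 (ENSG00000165646). The second was ALK (ENSG00000171094), RET (ENSG00000165731), NTRK3 (ENSG00000140538) and ERBB4 (ENSG00000178568). Of these 8, 7 had at least 1 listed peak and 5 had peaks in all 3 replicates, out of 13356 gene IDs with a peak. Together the 7 genes held 662 of 202310 peaks. The measurement was sCLIP, in which cells are irradiated with ultraviolet light to fix proteins on their RNA, and the RNA pieces pulled down with an antibody are read by sequencing. There was 1 group, made of 3 biological replicates of BE(2)-C cells of WT genotype, recovered with an antibody to CSTF2tau. BE(2)-C is an established human neuroblastoma line taken from a bone marrow metastasis, so every value describes that single line. Neither an input nor a control antibody library was used here, so more RNA of a gene and more binding to it cannot be told apart.

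CSTF2tau is a subunit of the cleavage stimulation factor, which binds U-rich and GU-rich RNA beyond the polyadenylation signal when a transcript is cut at its 3′ end; it is the close paralogue of CSTF2. In catecholamine synthesis, tyrosine hydroxylase (TH) makes L-DOPA, aromatic amino acid decarboxylase (DDC) turns it into dopamine, the vesicular monoamine transporter (SLC18A2) loads dopamine into vesicles, and dopamine beta-hydroxylase (DBH) converts it there to noradrenaline. Sympathetic neurons and many neuroblastomas use this pathway. ALK is activated by mutation in part of neuroblastomas, RET is the signalling receptor for ligands of the GDNF family, NTRK3 binds neurotrophin-3, and ERBB4 binds neuregulins.

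Each replicate came as a list of peaks, each with a gene ID, a p-value and a whole number taken here for its reads; no source states what that number counts. Replicates 1, 2 and 3 listed 105203, 18346 and 78761 peaks, which add up to 736059, 108434 and 387784 reads. No listed peak has fewer than 3 reads, so a gene with scattered reads below that can be bound and still be unlisted. Replicate 3 leaned to 1 strand: the minus strand carried 62.9% of its reads, while it carried 48.7% in replicate 1 and 49.6% in replicate 2. ALK, DDC, ERBB4 and NTRK3 lie on the minus strand, and DBH, RET and SLC18A2 lie on the plus strand. Positions are those of hg19. Within the listed spans of the 7 genes no peak of another gene ID was listed on either strand, and 0 of their peaks were listed under several gene IDs.

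Being listed in all 3 replicates was the case for 5 of the 7 genes with a listed peak, against 33.0% of all gene IDs with one. ALK had the largest mean share of reads, with RET and DDC next and DBH and ERBB4 close together behind them. ALK took 0.0939% of the reads in replicate 1, 0.0719% in replicate 2 and 0.285% in replicate 3, averaging 0.150% ± 0.117 (SD, n = 3). RET took 0.0876%, 0.0618% and 0.0191%, averaging 0.0562% ± 0.0346 (SD, n = 3). The catecholamine enzyme DDC followed with 0.0925%, 0.0129% and 0.0529%, averaging 0.0528% ± 0.0398 (SD, n = 3). ALK was therefore highest in replicate 3, whereas RET and DDC were highest in replicate 1.

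DBH, the last enzyme on the way to noradrenaline, had read shares of 0.0264%, 0.0553% and 0.0181% (mean 0.0332% ± 0.0196, SD, n = 3) and was highest in replicate 2. ERBB4 had 0.00829%, 0.00922% and 0.0817% (mean 0.0331% ± 0.0421, SD, n = 3), most of which came from replicate 3. All genes were measured in the same 3 libraries, so neighbours in this order were compared within each. ALK was above RET in 3 of 3 replicates (mean log2 ratio 1.41, exact sign-flip test, two-sided p = 0.25, the smallest that 3 replicates allow). By replicate the log2 ratios of ALK to RET were 0.10, 0.22 and 3.90, so most of that mean came from replicate 3. The ranges of ALK and RET overlapped, so they too did not differ beyond the spread. RET and DDC, DDC and DBH, and DBH and ERBB4 changed order between replicates, so these neighbours did not differ beyond the spread either. By mean share over all 13356 gene IDs, ALK ranked 61, RET 248, DDC 264, DBH 506 and ERBB4 513.

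**Figure D1:**
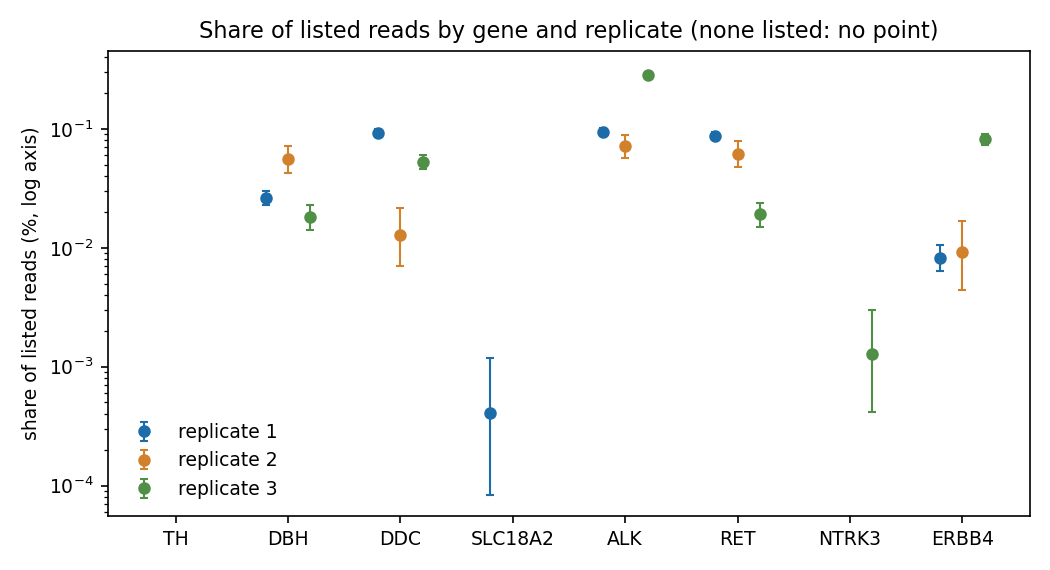
Share of listed reads (percent, log axis) for each gene, with 1 point per replicate and the exact 95% interval, which covers counting error only; a gene without a point had no listed peak in that replicate. ALK and ERBB4 are highest in replicate 3, RET and DDC in replicate 1 and DBH in replicate 2.

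The remaining catecholamine genes were all but missing from the lists. TH, the first enzyme of the pathway and usually its slowest step, had no peak in any of the 3 lists as used here, which does not show that its RNA was unbound. SLC18A2 had 1 peak of 3 reads, in replicate 1, at chr10:119004844-119004901 on the plus strand, and none in replicates 2 and 3. NTRK3, among the receptors, had 1 peak of 5 reads, in replicate 3, at chr15:88535142-88535209 on the minus strand, and none in replicates 1 and 2. With 3 and 5 reads in all, SLC18A2 and NTRK3 could not be described further, and their RNA may lie below the smallest listed peak. The catecholamine set held 0.119%, 0.0682% and 0.0709% of the reads in replicates 1, 2 and 3, and the receptor set held 0.190%, 0.143% and 0.387%.

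Longer genes offer more RNA to bind, so levels were also set per length. No hg19 annotation was used, and the stretch between the outermost peaks of a gene in any replicate, its listed span, stood in for its length. That span was 22.8 kb for DBH, 51.8 kb for RET, 102 kb for DDC, 724 kb for ALK and 1159 kb for ERBB4. Per kb of span ALK and DBH changed places in the order of the means, and RET, DDC and ERBB4 kept theirs. Counts were scaled to 1000000 listed reads per replicate and are called scaled reads. DBH had 11.6, 24.3 and 7.93 scaled reads per kb in replicates 1, 2 and 3 (mean 14.6 ± 8.60, SD, n = 3). RET had 16.9, 11.9 and 3.68, a mean of 10.8 ± 6.68 (SD, n = 3), and was above DBH in replicate 1 and below it in the others. DDC averaged 5.19 ± 3.91 and ALK 2.07 ± 1.62 scaled reads per kb (SD, n = 3 each). RET and DDC changed order between replicates, while DDC was above ALK in 3 of 3 (exact sign-flip test, p = 0.25). By replicate the log2 ratios of DDC to ALK were 2.81, 0.35 and 0.40, and the ranges of these 2 genes overlapped.

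ERBB4 was the sparsest, with 0.0715, 0.0796 and 0.705 scaled reads per kb, a mean of 0.285 ± 0.364 (SD, n = 3). Its highest value lay below the lowest of ALK, 0.994, so these 2 ranges did not overlap. Over the 7095 gene IDs with at least 5 loci, the median was 1.35 scaled reads per kb and the median listed span was 45.3 kb. Against these, DBH stood at percentile 95.9, RET at 94.2, DDC at 86.9, ALK at 65.6 and ERBB4 at 8.79. By mean share over all gene IDs, ALK stood at percentile 99.5 and DBH at 96.2. ALK thus combined a high share of reads with a density nearer the middle of the list, and DBH was high in both. The density percentiles were not matched for span, and the 5 mean densities fell in the order of rising span.

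**Figure D2:**
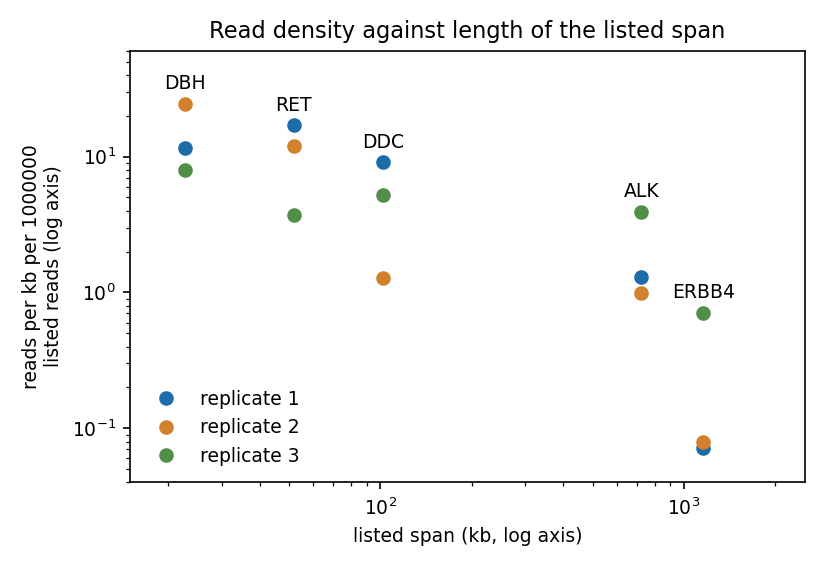
Reads per kb of listed span, scaled to 1000000 listed reads (log axis), against the length of the listed span (kb, log axis) for the 5 genes listed in every replicate, 1 point per replicate. The means fall from 14.6 in DBH, the shortest span, to 0.285 in ERBB4, the longest.

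DBH reads were densest at the far 3′ end of its listed span. The gene was covered at chr9:136501691-136524451 (plus strand) by 20, 8 and 9 peaks with 194, 60 and 70 reads in replicates 1, 2 and 3. The last listed base was 136524451 in replicate 1, 136524444 in replicate 2 and 136524447 in replicate 3, a range of 7 nt, whereas the first listed base ranged over 5.81 kb. Peaks centred in the last 1 kb held 60 of 194 reads in replicate 1, or 30.9% (exact 95% interval 24.5 to 37.9%). They held 39 of 60 reads in replicate 2, or 65.0% (51.6 to 76.9%), and 22 of 70 in replicate 3, or 31.4% (20.9 to 43.6%). That concentration was seen in all 3 replicates and was highest in replicate 2. The edge was set by the listed peaks themselves. Neither these shares nor the 7 nt range was set beside those of all gene IDs.

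The DBH locus common to all 3 replicates sat at the 3′ edge. It covered 178 nt at chr9:136524274-136524451, where overlapping peaks of the replicates were merged, with 49, 8 and 13 reads, and it held 21.6% of all DBH reads. Beside it, chr9:136524106-136524225 had 8 and 9 reads in replicates 2 and 3 and none listed in replicate 1. The strongest DBH position away from the 3′ edge lay 2.48 kb from the 5′ edge of the span, at chr9:136504173-136504345, with 39 reads in replicate 1, 7 in replicate 3 and none listed in replicate 2. These last 2 loci were picked after their values were seen. The 49 and the 39 reads of replicate 1 were each summed over touching peaks.

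RET showed 2 dense zones, in the middle and at the 3′ end of its span, in every replicate. The gene spanned chr10:43574045-43625851 (plus strand), with 82, 12 and 11 peaks and 645, 67 and 74 reads in replicates 1, 2 and 3. The span was cut into 10 equal bins, from bin 1 at the 5′ edge to bin 10 at the 3′ edge. Bin 5 held 201, 18 and 18 reads, bin 6 held 139, 0 and 20, and bin 10 held 143, 34 and 25. The middle zone thus took in bins 5 and 6 in replicates 1 and 3, but only the 18 reads of bin 5 in replicate 2. Bins 7, 8 and 9 between them held 22, 26 and 29 reads over all replicates. The last listed base ranged over 350 nt, against 7.92 kb for the first. Of the 8 genes, RET had the most loci present in all 3 replicates, 4 of its 82.

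Of these 4 loci, 3 were at the 3′ end. The first, of 175 nt at chr10:43622388-43622562, lay 3.29 kb before the 3′ edge of the span and had 56, 13 and 7 reads. The next, chr10:43624432-43624513, had 10, 8 and 3 reads, and chr10:43625411-43625515, which lay 0.336 kb from the edge, had 20, 7 and 9. The locus in the middle zone was 319 nt long at chr10:43598254-43598572, with 64, 7 and 13 reads. Each of the 4 was highest in reads in replicate 1, the library with the most reads. In replicate 1, RET peaks were also cut finely: 43 of 82 touched a neighbour end to start (52.4%), against 7.74% of all peaks of that replicate, and their median width was 35 nt, against 79 nt. None of the RET peaks of replicates 2 and 3 touched another, so RET peak numbers are not comparable between replicates. How reads across such cuts were counted is not given in the sources used here, so RET read sums may carry the same limit.

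DDC was covered mainly in the 3′ part of its span, with its densest stretch before the end and not at it. The gene ran over chr7:50526215-50627962 (minus strand), with 71, 4 and 32 peaks and 681, 14 and 205 reads in replicates 1, 2 and 3. The 50% of the span nearer the 3′ edge held 73.0% of the reads in replicate 1 (exact 95% interval 69.5 to 76.3%) and 82.9% in replicate 3 (77.1 to 87.8%). In replicate 2 it held 7 of 14 reads, too few to tell. Bins 6, 7 and 8 held 151, 226 and 147 of the 900 DDC reads, and bin 10 held 70. None of the 94 DDC loci was present in all 3 replicates, and 11 were present in replicates 1 and 3. The strongest was chr7:50558979-50559133, with 70 reads in replicate 1, summed over touching peaks, and 12 in replicate 3. The next by mean share was chr7:50568930-50569106, with 17 and 19 reads in replicates 1 and 3, and replicate 2 had none listed at either. A further DDC locus, picked after its values were seen, was a single peak of 47 reads in replicate 1 at chr7:50563787-50563951, with none listed there in replicates 2 and 3.

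ALK had the most peaks of the 8 genes and lay thickest near its 5′ end. Its 118, 18 and 191 peaks with 691, 78 and 1104 reads spread over chr2:29419826-30143638 (minus strand). Bin 1 held 244 reads in replicate 1 and 294 in replicate 3, the fullest bin in both. In replicate 2 bin 1 held 10 reads and bin 4 held 31. Bin 4 was the next fullest in the other two, with 160 reads in replicate 1 and 172 in replicate 3. Summed over replicates, the 50% of the span nearer the 3′ edge held 28.5% of the reads, with 24.0%, 24.4% and 31.5% in replicates 1, 2 and 3, so all 3 leaned to the 5′ side.

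None of the 296 ALK loci was present in all 3 replicates, although 30 were shared by replicates 1 and 3 and 1 by replicates 1 and 2. By mean share the first was chr2:29915736-29915791, with 8 reads in replicate 2 only, where 1 read weighs most. The next, chr2:30081008-30081149, had 14 reads in replicate 1 and 18 in replicate 3, and lay 62.5 kb from the 5′ edge of the span.

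ERBB4 was spread more thinly over its span than ALK and also lay mostly toward the 5′ end. It had 16, 3 and 65 peaks with 61, 10 and 317 reads in replicates 1, 2 and 3, over chr2:212242008-213401277 (minus strand). Bins 1 and 2 held 135 and 124 of the 388 reads, and the 50% of the span nearer the 3′ edge held 12.6% of them. By replicate, that part held 10 of the 61, 0 of the 10 and 39 of the 317 reads. Single peaks were shallow, with at most 8, 4 and 11 reads in replicates 1, 2 and 3. Only 2 of 82 ERBB4 loci were shared by any replicates, both by 1 and 3. The 2 loci of highest mean share, chr2:213182322-213182372 with 4 reads in replicate 2 and chr2:213252909-213253044 with 11 reads in replicate 3, each occurred in a single replicate.

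**Figure D3:**
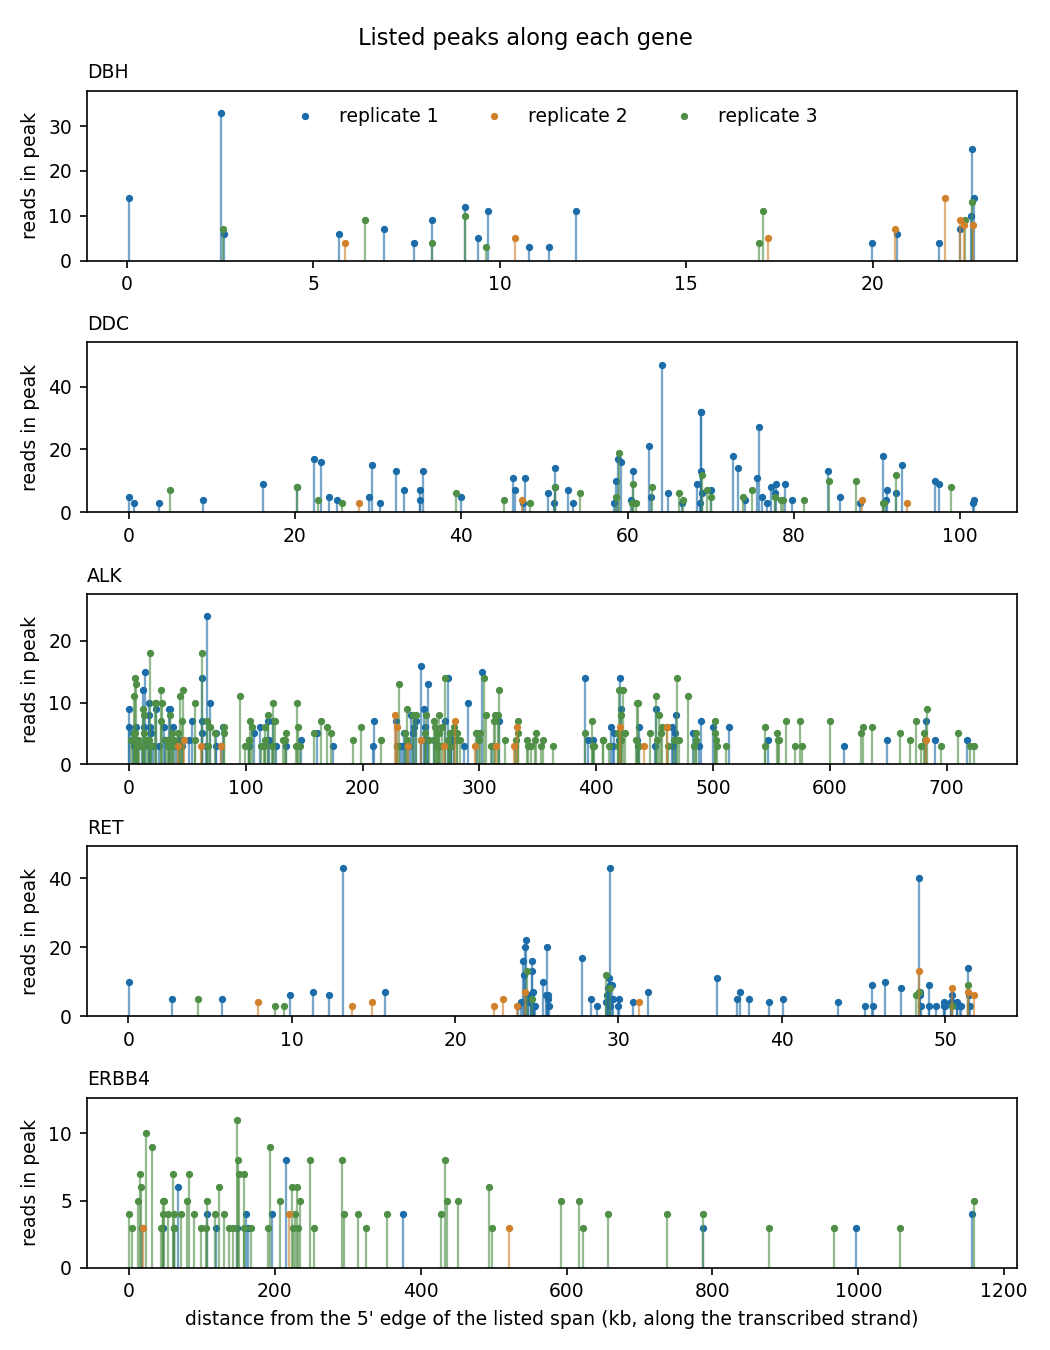
Reads in each listed peak (vertical axis) against the distance of the peak's centre from the 5′ edge of the listed span (kb, along the transcribed strand), coloured by replicate. DBH and RET have peaks of all 3 replicates at the 3′ edge, and ALK and ERBB4 are densest near the 5′ edge.

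**Figure D4:**
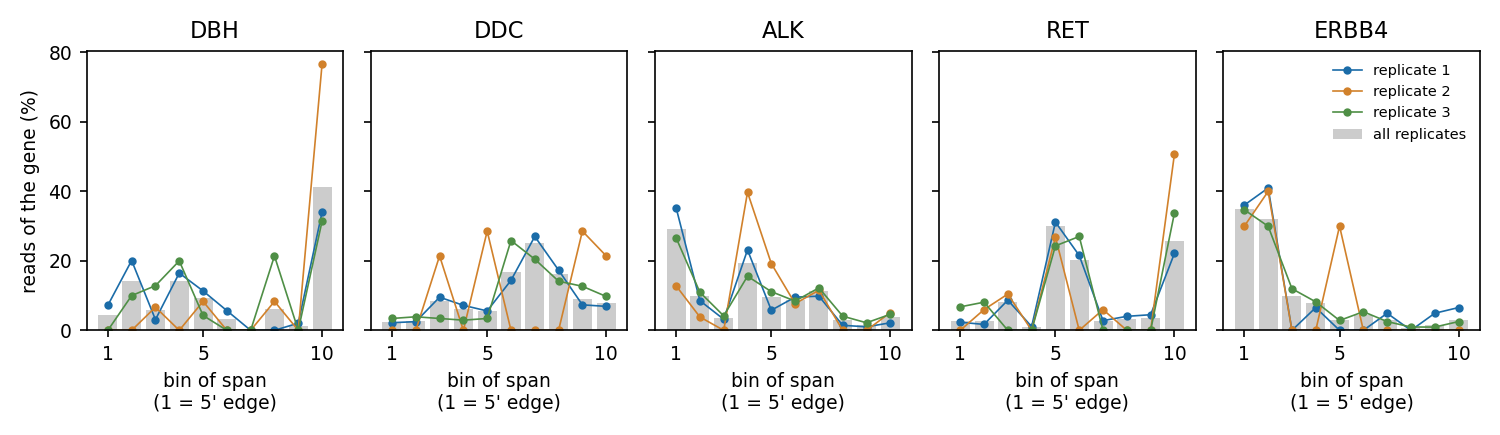
Percent of each gene's reads in 10 equal bins of its listed span, from the 5′ edge (1) to the 3′ edge (10); grey bars are the 3 replicates summed and lines are single replicates. Bin 10 holds 41.4% of DBH reads and 25.7% of RET reads, and bin 1 holds 29.3% of ALK reads and 34.8% of ERBB4 reads.

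The share of the listed span covered by loci followed the same order as the density of reads. Loci covered 10.1% of the span of DBH, 8.33% of that of RET, 7.52% in DDC, 3.33% in ALK and 0.551% in ERBB4. The median gap between neighbouring loci was 0.426 kb in DBH, 0.541 kb in DDC, 1.09 kb in ALK and 4.83 kb in ERBB4. In RET it was 0.274 kb. Touching peaks of replicate 1 counted as separate loci in these gaps unless a peak of another replicate overlapped both. In that replicate 43 of 82 RET peaks touched a neighbour, 8 of 71 in DDC, 5 of 20 in DBH and 2 of 118 in ALK. DBH peaks were also the deepest, equal to DDC in replicate 1, with medians of 7, 7.5 and 9 reads in replicates 1, 2 and 3, against 5, 4 and 4 over all gene IDs. ERBB4 peaks had medians of 3, 3 and 4 reads, the shallowest of the 5 genes in each replicate. Taken over the 7 listed genes, median widths were 68.5, 65 and 70 nt, against 79, 72 and 69 nt over all gene IDs.

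The ends of the spans were then tested, since CSTF2tau belongs to the complex that acts where transcripts are cut. Reads in the 10% of the span next to the 3′ edge were set against those in the 10% next to the 5′ edge. The test was a binomial one, exact and two-sided, with p-values adjusted by Benjamini-Hochberg over all 6382 gene IDs tested. A call also needed every replicate that had reads in these windows to point the same way. All 5 genes that could be tested were called, DBH, RET and DDC at the 3′ side and ALK and ERBB4 at the 5′ side. Over the whole table a 3′ call was made for 18.1% of gene IDs and a 5′ call for 14.1%. Before the condition on direction, 2912 of the 6382 had an adjusted p below 0.05 by the exact test.

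RET carried 202 reads in the 3′ window and 20 in the 5′ window (log2 ratio 3.30, adjusted p = 1.9e-37 by the exact test). By replicate these were 143 against 15, 34 against 0 and 25 against 5. DBH carried 134 and 14 (log2 ratio 3.21, adjusted p = 2.2e-24 by the exact test), with 66 against 14, 46 against 0 and 22 against 0 in replicates 1, 2 and 3. The 14 reads at the 5′ side of DBH were 1 peak of replicate 1, which itself set that edge of the span. Replicates 2 and 3 had no listed peak that far out, and bin 2 held 46 DBH reads over all replicates. DDC differed less, with 70 and 22 (log2 ratio 1.65, adjusted p = 2.9e-06 by the exact test). Its replicates had 47 against 15, 3 against 0 and 20 against 7. With peaks as the unit in place of reads DDC was not called, and the log2 ratio was 0.79 (exact test, adjusted p = 0.59).

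ALK carried 70 reads in the 3′ window and 548 in the 5′ window (log2 ratio -2.96, adjusted p = 9.4e-91 by the exact test). The replicates had 15 against 244, 4 against 10 and 51 against 294. ERBB4 carried 12 and 135 (log2 ratio -3.44, adjusted p = 4.2e-26 by the exact test), with 4 against 22, 0 against 3 and 8 against 110 in replicates 1, 2 and 3. The order of these 2 ratios turned round without replicate 3, at -2.66 for ERBB4 and -3.44 for ALK. These p-values cover counting error only, because reads of 1 peak need not be independent molecules, and a listed span need not end where the annotated transcript does. Between replicates the last listed base ranged over 7 nt in DBH and 350 nt in RET. It ranged over 8.11 kb in DDC, 41.5 kb in ALK and 638 kb in ERBB4, so the outer windows of these 3 were set less alike.

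The direction of such calls moved with the length of the span over the whole lists. Of 132 gene IDs with spans above 500 kb, 54.5% had a 5′ call, against 9.26% of the 3284 gene IDs with spans up to 50 kb. Each gene was therefore set beside gene IDs whose spans lay within 1.5 times its own. For ALK there were 117, of which 53.8% had a 5′ call, with a median log2 ratio of -1.89, and ALK stood at percentile 30.8 among them. For ERBB4 there were 44, of which 59.1% had a 5′ call, with a median of -2.17, and ERBB4 stood at percentile 31.8. Most gene IDs of like length thus had the same call as these 2 receptors.

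At the 3′ end the shorter genes stood further out. DBH was at percentile 95.8 among 1408 gene IDs of like span, of which 17.8% had a 3′ call, with a median log2 ratio of 0.31. RET was at percentile 95.3 among 1672, of which 18.2% had a 3′ call, with a median of 0.20. DDC was at percentile 80.3 among 1475, of which 20.8% had a 3′ call, with a median of 0.21. With windows of 50% of the span, DBH was not called (169 reads in the 3′ window and 155 in the 5′ window; exact test, adjusted p = 0.57), and DDC lost its call because replicate 2 had 7 reads in each window. RET kept its call with 438 and 348 reads, at a log2 ratio of 0.33 (exact test, adjusted p = 0.0035). The DBH and RET differences were therefore larger in the outermost windows.

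Replicates 3 and 1, the larger libraries, ranked the genes differently. ERBB4 had 317 reads in replicate 3 and 61 in replicate 1, and its share was 9.86-fold higher in replicate 3 (log2 ratio 3.30). ALK was 3.03-fold higher, with 1104 and 691 reads and a log2 ratio of 1.60. RET was lower in replicate 3, with 74 reads there and 645 in replicate 1 and a log2 ratio of -2.20. The 645 reads include the finely cut, touching RET peaks of replicate 1, and what this did to the ratio was not tested. DDC had 205 and 681 reads (log2 ratio -0.81), and DBH had 70 and 194 (log2 ratio -0.55). The 2 genes higher in replicate 3 lie on the minus strand, on which replicate 3 had its excess of reads, but DDC, on the same strand, was lower.

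Among gene IDs with at least 10 reads in both replicates, the median log2 ratio was 0.58 over 2889 on the minus strand and -0.08 over 2516 on the plus strand. Within the minus strand, ERBB4 stood at percentile 99.1, ALK at 80.6 and DDC at 8.97. Within the plus strand, RET stood at percentile 2.23 and DBH at 34.3. With the reads of the same strand as the total, the log2 ratios were 2.93 for ERBB4, 1.23 for ALK, -1.18 for DDC, -1.73 for RET and -0.08 for DBH. On this scale the directions of all 5 genes were kept, and the DBH shares lay close together. These values compare 2 libraries, and no test over replicates is possible for them.

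**Figure D5:**
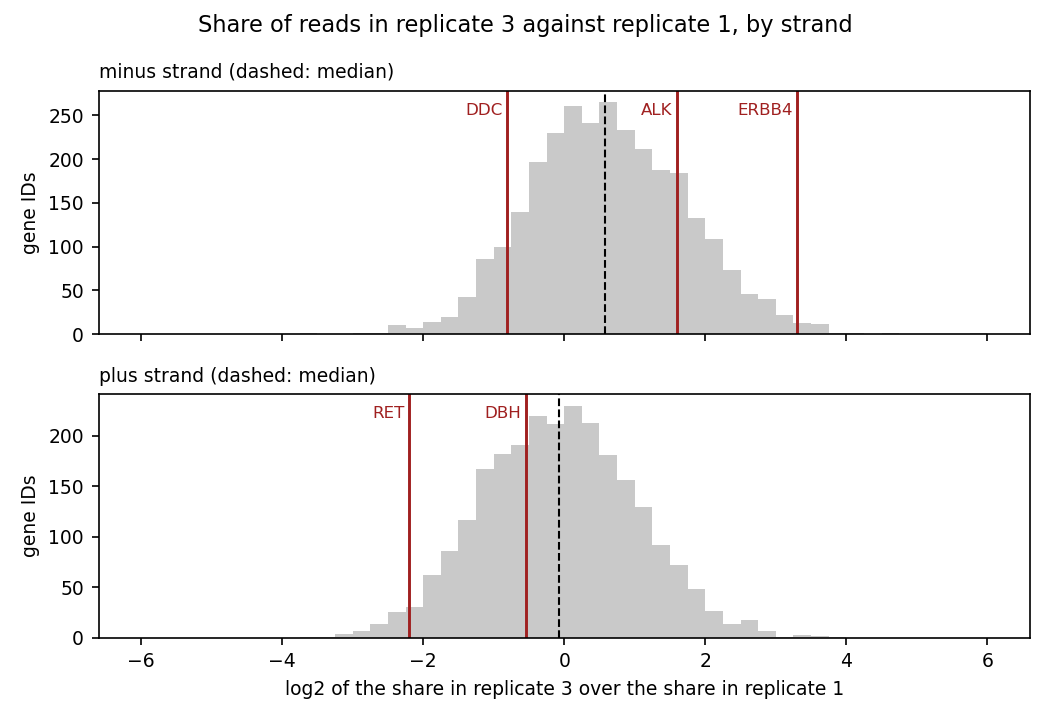
Number of gene IDs by the log2 ratio of their share of reads in replicate 3 over replicate 1, for the minus strand (top) and the plus strand (bottom), for gene IDs with at least 10 reads in both; the dashed line is the median and red lines are the 5 genes. ERBB4 lies at 3.30 and RET at -2.20, near opposite edges.

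Exact positions came back less often than genes did. Of the 581 loci of the 8 genes, 522 came from a single replicate, 54 from 2 replicates and 5 from all 3 (0.861%). Over all gene IDs the figure was 0.882% of 182182 loci. DBH and RET held all 5. Only a gene listed in all 3 replicates can have such a locus, as were 5 of the 7 listed genes, of which 2 had one. Of all 13356 gene IDs, 4414 were listed in all 3, and 741 had such a locus (5.55% of all gene IDs). Of the 54 loci in 2 replicates, 50 were shared by replicates 1 and 3, 3 by 1 and 2, and 1 by 2 and 3.

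By peak, 24.4% of the 308 peaks of the 8 genes in replicate 1 overlapped one of the same gene in another replicate (exact 95% interval 19.7 to 29.5%), against 15.2% of all peaks. In replicate 3 it was 18.1% of 309 (14.0 to 22.9%), against 16.8%. Replicate 2 went the other way, with 9 of 45 (9.58 to 34.6%), against 35.0%. Among the genes, DBH peaks recurred most, at 10 of 20, 4 of 8 and 6 of 9 in replicates 1, 2 and 3. ERBB4 peaks recurred least among the 5 genes, at 2 of 16, 0 of 3 and 2 of 65. Peaks with more reads recurred more often, at 44.7% of 103 peaks of 10 reads or more (34.9 to 54.8%) and 10.7% of 291 peaks of 3 to 4 reads (7.35 to 14.8%), against 36.5% and 11.2% over all gene IDs.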

How the data were processed

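The 3 replicate peak lists of 8 columns, 1 per library, were used as deposited. Per the submitters' processing notes the build was hg19 and FastQC, SAMtools, STAR and bedtools were used; for the peak caller and the annotation the entry is: not given in the sources used here. Each p-value is the authors' own as deposited, all below 0.05. The last number of a peak name was read as reads, because its Spearman correlation with the p-value over peaks was -0.988, -0.973 and -0.964.

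Peaks of 1 gene ID overlapping by at least 1 nt were merged into loci over replicates with Python 3.11.15 and pandas 2.3.3. Exact Clopper-Pearson intervals (95%) and exact binomial tests came from SciPy 1.17.1 and cover counting error only. The end test used gene IDs with at least 5 loci and 10 reads at both ends together, peaks placed by their centre, and 0.5 reads added per end. It was tested on simulated data with reads drawn independently, so its error for reads clustered in peaks was not tested. Neighbours in the order of levels were to be compared by their ranges, which overlapped for all of them except ALK and ERBB4 per kb; the exact sign-flip test within replicates was added after the values were seen.

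The genes, lists and tests were chosen with earlier results of these data known. All 8 genes were described; loci were named if present in all 3 replicates, up to 5 a gene, otherwise the 2 of highest mean share. Symbols came with the gene IDs, and the chromosome of 7 of 7 listed genes was that of its symbol in RefSeq. The RefSeq table used here pairs 0 Ensembl IDs, so other pathway genes and cell type markers were not analysed here, nor was sequence, for want of an hg19 genome.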

Additional observations from a re-analysis of the deposited data

Results flagged for a closer look

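The running numbers in the peak names, which no comparison above used, had gaps. Summed over the 7 listed genes, no peak was listed for 55.6% of the numbers below a gene's highest in replicate 1. The share was 78.8% in replicate 2 and 56.0% in replicate 3. Over all gene IDs these shares were 54.4%, 60.2% and 52.6%. The share of the listed genes was thus higher than that of all gene IDs in replicate 2, a difference that was not tested, and no control library was used here.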

How the results depend on the processing

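Of 157 alternative values, 12 moved and 3 lost their call, and the causes were not tested. Of 112 shares, densities, percentages and counts, 100 stayed within 1 SD of the replicates or 1.5 times a count. For mean shares without 1 replicate this was fixed in advance, since leaving out 1 of 3 values cannot move their mean by 1 SD. TH, with no listed peak, was 0 in every setting, so the tally is no measure of stability for these values. Of 40 end ratios, 37 kept direction and call, and their size was not limited: windows of 50% of the span gave 0.33 for RET and -1.33 for ALK, and windows of 20% gave 1.19 for DBH. Leaving out peaks listed under several gene IDs could not move these ratios, since the genes had no such peaks. All 5 ratios of replicate 3 to replicate 1 kept their sign. With windows of 50% of the span 3 of the 5 genes were called, DBH (0.12) and DDC (1.57) losing their calls; with peaks in place of reads, DDC lost its call (0.79). Over all gene IDs, 3′ and 5′ calls numbered 218 and 225 with peaks in place of reads, and 734 and 590 with only peaks of p up to their list's median. Leaving out each replicate in turn gave 617 to 1171 calls at the 3′ end, 540 to 1051 at the 5′ end, and 5 called genes each time. It gave 6 to 55 loci in both remaining replicates, 55 without replicate 2, and 7.64 to 19.9% of peaks shared. With only those peaks, 27.1% of peaks were shared, against 20.8%. Mean shares without 1 replicate ran from 0.0829 to 0.189% for ALK, 0.0404 to 0.0747% for RET, 0.0329 to 0.0727% for DDC, 0.0222 to 0.0408% for DBH and 0.00875 to 0.0455% for ERBB4; without replicate 3 ALK was 0.0829% and ERBB4 0.00875%. Scaled reads per kb ran from 9.76 to 18.1 for DBH, 8.50 to 14.4 for RET, 3.50 to 7.14 for DDC, 1.16 to 2.62 for ALK and 0.0769 to 0.392 for ERBB4. Merging touching peaks, the strand totals and all alternatives for reads per kb were chosen after seeing the data. Replicate 2 limits depth: 14 DDC and 10 ERBB4 reads. No paired analysis was possible because the labels give 1 group.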
